A study of Mus musculus with 33 samples.

Results

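The genes that carry glucose from its uptake to pyruvate, and pyruvate to lactate or acetyl-CoA, were followed in cloned and fertilised mouse blastocysts. The group held 37 genes, matched by accession or name to the probe annotation of the array, and all 37 were among the 15815 genes tested. The genes were chosen with earlier results of these data known. They comprised 2 glucose transporters, 9 genes of upper glycolysis, 3 enzymes that make or remove fructose 2,6-bisphosphate, 6 genes of lower glycolysis, 4 of lactate exchange, 3 of the pyruvate dehydrogenase complex and its 4 kinases, 4 of the pentose phosphate pathway and 2 phosphoglucomutases. Glycolysis splits glucose into pyruvate and yields ATP without oxygen. Pyruvate then enters the mitochondrion, where pyruvate dehydrogenase turns it into acetyl-CoA, or is reduced to lactate and exported. Early cleavage embryos rely on pyruvate, and glucose uptake and glycolysis rise as the blastocyst forms.

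Each of 33 arrays was hybridised with the amplified RNA of 1 blastocyst of the (C57BL/6NxDBA/2)F1 background. Clones had received the nucleus of an adult Purkinje neuron (4 male, 4 female), an adult hippocampal CA1 pyramidal neuron (4 male, 4 female), a neonatal Sertoli cell of the testis (4 male) or an adult cumulus cell of the ovary (3 female), and IVF blastocysts (7 male, 3 female) were the controls. All clones had been exposed to 50 nM trichostatin A (TSA), which blocks histone deacetylases, during 1 h of activation, 5 h with cytochalasin B and 2 h more, which the labels do not give for IVF embryos, so cloning and TSA cannot be told apart. Culture lasted 96 h for the clones. The labels do not give the number of donor animals or sessions behind a group, so p-values measure the spread between these embryos only, which may in part be technical.

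A level is log2 of a probe's signal over the 75th percentile of its array, so 0 is the level of that percentile, and -3.43 is a floor below which values were set equal. A change is a difference of 2 mean levels, and a gene is called where limma's Benjamini-Hochberg adjusted p over all 15815 genes is under 0.05. Between 45.0% and 62.5% of probes were well above background on an array. The raw 75th percentile reached only 229.7 to 659 on male and 354 to 838 on female Purkinje arrays, compared with 904 to 1466 on the rest, so Purkinje calls are also given without the 5 arrays under 500 (male replicates 3 and 4, female replicates 2, 3 and 4). IVF and cumulus arrays formed an earlier set of 13 arrays on another scanner and software version, and the other 20 arrays the present set. In 5 of the 6 comparisons of clones with IVF, array set and cloning therefore cannot be told apart. Spots at or below 0 made up 15.7% to 23.3% of each array of the earlier set and 0% of each array of the present set. How far this moved the changes of dim members was not tested. No clone group shared its slide with another group, and clones of each donor cell type were scanned on a day of their own. Trophectoderm markers were well above background on all arrays of a group for 14 to 16 of 16 genes, and epiblast markers for 10 or 11 of 11. The mean trophectoderm level per array was 4.15 to 4.54 in male IVF embryos, 3.70 to 4.10 in male CA1 and 3.08 to 3.85 in Sertoli clones. The other clone groups overlapped the IVF embryos of their sex. Of the 16, 2 were higher and 2 lower in male Purkinje, 1 and 6 in male CA1 and 2 and 4 in Sertoli clones. Female Purkinje, female CA1 and cumulus clones had 2 and 2, 1 and 3, and 1 and 0. Primitive endoderm markers, whose mean level per array was 1.74 to 3.75 in male and 2.50 to 3.55 in female IVF embryos, lay at 0.60 to 2.86 in clones, with 4 to 9 of 16 lower in a comparison; their part in the results below was not tested. Of the donor-cell lists, 9 of 14 neuron, 5 of 13 cumulus and 3 of 10 Sertoli markers were bright enough to test. Since a whole blastocyst was measured, fewer cells of a type and less RNA per cell cannot be told apart.

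On the X chromosome lie 5 of the 37 members (Pgk1, Pfkfb1, Pdha1, G6pdx and Pdk3), and Pgk1 had the largest fall of any member against IVF embryos. The 250 bases before the start of 3 of them are shown so that these promoters can be compared. The sequences are RefSeq's, in GRCm38.p6, 5′ to 3′ on the strand of the gene. Capitals mark ACGTG and GCGTG, the cores of the hypoxia response element, and GGGCGG, the GC box bound by Sp1, on either strand.
Pgk1, chrX:106186850-106187099, plus strand: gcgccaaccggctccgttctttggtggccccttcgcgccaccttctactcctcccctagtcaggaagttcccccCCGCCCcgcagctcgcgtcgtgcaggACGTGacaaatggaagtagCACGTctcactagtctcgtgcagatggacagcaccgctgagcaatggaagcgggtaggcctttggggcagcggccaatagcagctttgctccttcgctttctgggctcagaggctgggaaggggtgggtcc
Pdha1, chrX:160138431-160138680, minus strand: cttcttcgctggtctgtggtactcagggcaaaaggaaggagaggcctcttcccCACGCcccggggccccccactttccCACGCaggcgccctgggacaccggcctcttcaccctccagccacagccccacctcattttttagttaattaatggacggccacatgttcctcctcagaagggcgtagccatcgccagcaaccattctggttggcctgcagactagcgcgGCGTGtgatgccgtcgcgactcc
G6pdx, chrX:74428881-74429130, minus strand: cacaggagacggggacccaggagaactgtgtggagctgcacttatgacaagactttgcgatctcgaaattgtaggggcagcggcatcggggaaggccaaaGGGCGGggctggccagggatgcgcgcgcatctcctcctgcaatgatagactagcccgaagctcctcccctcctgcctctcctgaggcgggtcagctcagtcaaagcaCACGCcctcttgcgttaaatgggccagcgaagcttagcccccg
The Pgk1 promoter held 2 ACGTG and 1 GGGCGG, that of Pdha1 3 GCGTG, and that of G6pdx 1 GCGTG and 1 GGGCGG. All 3 were rich in CpG, with 17, 15 and 15 CG pairs against a median of 6 over 32841 promoters. Not all X-linked members shared this. The starts of Pfkfb1 had 0, 17, 1 and 1 CG pairs. The Pfkfb1 start with 17 held 1 GCGTG and 2 GGGCGG, and the others held none of these runs. That of Pdk3 had 29 CG pairs, 1 ACGTG, 3 GCGTG and 1 GGGCGG. Over the 32841 promoters ACGTG occurred in 16.6%, GCGTG in 28.2%, either of these in 38.6% and GGGCGG in 32.7%. Promoters were matched for 36 members (56 starts), of which 21 held ACGTG, 30 GCGTG, 43 either and 29 GGGCGG. A match is a run of letters and not a binding site.

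Of the 37 members, 23 were called in at least 1 of the 6 comparisons of clones with IVF embryos of the same sex and 14 in none. Of the 23, 12 rose only, 10 fell only, and Aldoc did both. Called in 3 or more comparisons were 7 members, Hk1, Pfkm, Pfkfb1, Aldoc, Pgk1, Eno1 and Pdha1. Male Purkinje clones had 3 members higher and 9 lower (32.4% called), where 28.6% of all genes were called, 18.3% higher and 10.3% lower. Male CA1 clones had 8 higher and 5 lower (35.1%), against 31% of all genes, 17.7% higher and 13.3% lower. Sertoli clones had 4 higher and 4 lower (21.6%), against 25.9% of all genes, 15.1% higher and 10.8% lower. Female Purkinje clones had 3 higher and 3 lower (16.2%), against 19.7% of all genes, 13.1% higher and 6.66% lower. Female CA1 clones had 2 higher and 3 lower (13.5%), against 13.3% of all genes, 8.41% higher and 4.87% lower. Cumulus clones had 2 higher and 0 lower (5.41%), against 5.29% of all genes, 1.94% higher and 3.34% lower. The shares called lay near those of all genes, so the pathway as a list did not stand apart by its count. Members whose clone and control ranges did not overlap numbered 6, 8, 8, 10, 11 and 10 of 37 in this order of groups, where 12.4%, 19.6%, 14%, 26%, 21.5% and 25.6% of all genes did not overlap. The median change of the members was -0.15, -0.06, -0.06, -0.15, -0.11 and -0.06 in the same order, and that of all genes 0.07, 0.01, 0.00, 0.08, 0.07 and -0.02. With arrays scaled to their median instead of the 75th percentile, which shifted the changes of all genes by a median of -0.61 to 0.09 in these comparisons, the counts higher and lower were 1 and 13, 4 and 5, 1 and 4, 0 and 10, 0 and 3, and 2 and 0, so the balance of directions depends on the scaling. Over all genes those counts were 1068 and 2580, 1668 and 2567, and 1383 and 1914 in the male groups. In the female groups they were 462 and 2788, 800 and 769, and 233 and 264. Without the 5 dim arrays, 5 members (Hk1, Pfkm, Pfkfb1, Pgk1 and Eno1) were called in male Purkinje clones (10.7% of all genes) and 0 in female Purkinje clones (1.94% of all genes), where 1 array was left.

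**Figure D1:**
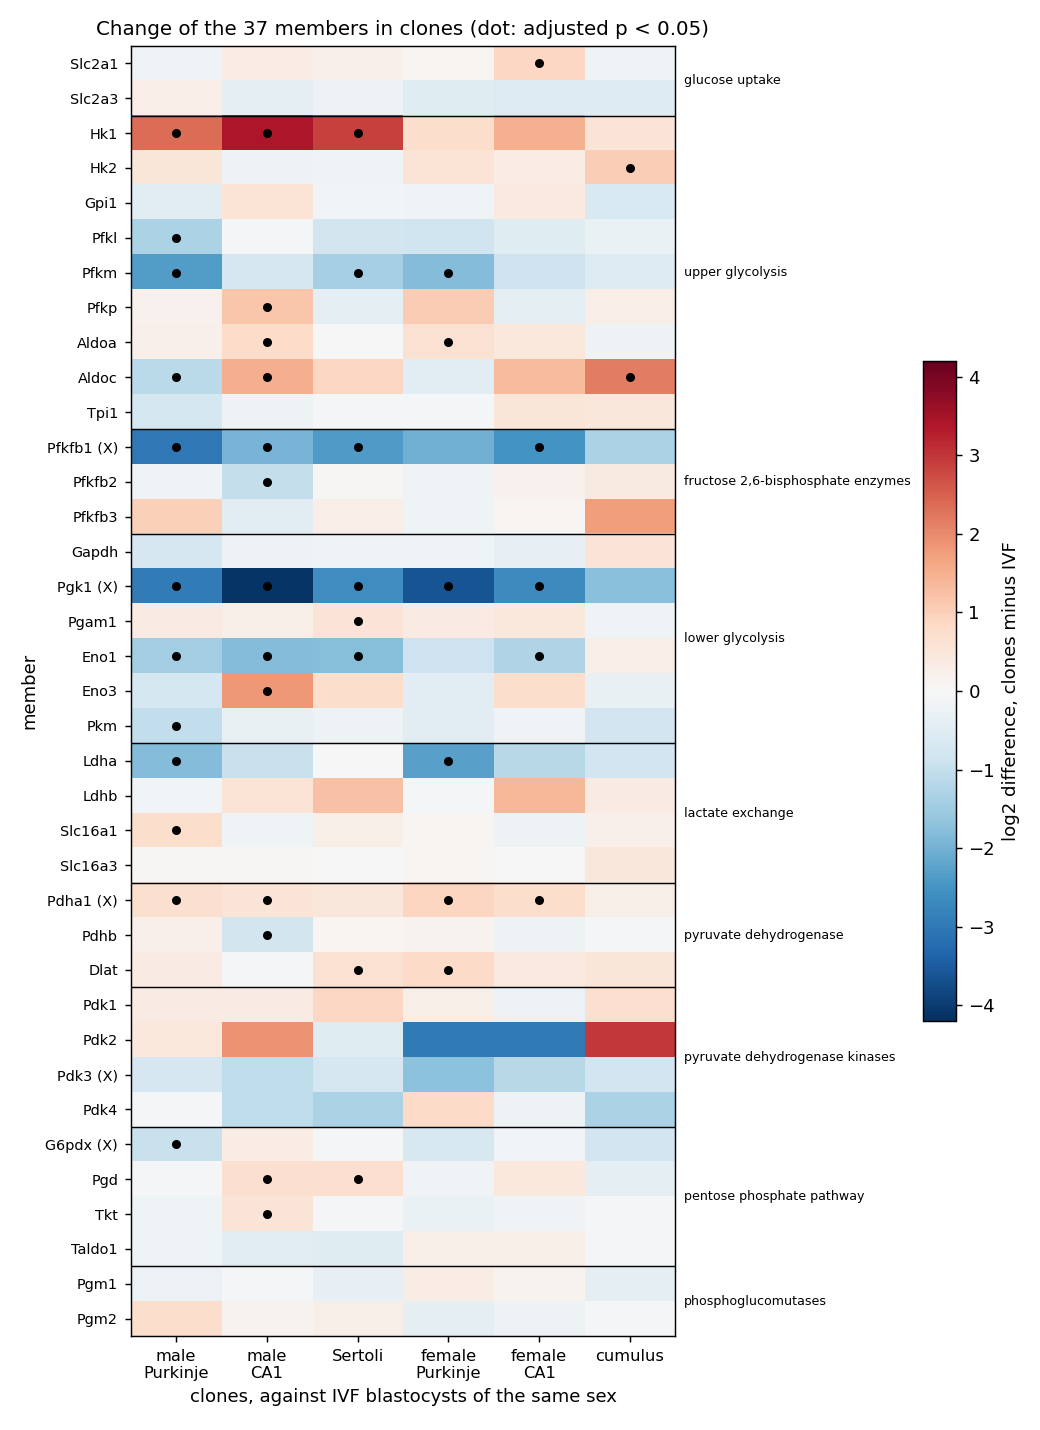
Change of the 37 members (vertical axis, by step of the pathway) in each of the 6 clone groups against IVF blastocysts of the same sex (horizontal axis), as a log2 difference in colour, with a dot where the adjusted p was under 0.05. Pgk1 is dotted in 5 of the 6 columns and Hk1 in the 3 male ones, and 14 members have no dot.

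Glucose uptake was followed through Slc2a1 and Slc2a3, which encode the transporters GLUT1 and GLUT3. Slc2a1 lay at levels of 4.21, 3.71, 4.76 and 4.15 in female CA1 clones against 3.33, 3.13 and 3.55 in female IVF embryos, without overlap. It rose there by 0.87 (SE 0.27, 1.83-fold, adjusted p = 0.0345) and was called in no other clone group against IVF. The call was lost without any 1 of female CA1 replicates 1, 3 or 4 or female IVF replicates 1 or 2 (adjusted p = 0.0506 to 0.128). It was also lost under normexp background correction (0.399), quantile normalization (0.259) and scaling to the array median (0.1). Fitting only these 2 groups (0.12) and slide as a random block (0.0538) ended it too. Slc2a3 was called in no comparison with IVF; it lay between 5.84 and 7.23 on all arrays, and its change against the male controls ran from -0.38 to 0.28. Outlier spots left only 1 of 3 female IVF values for Slc2a3.

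Hexokinase phosphorylates glucose on entry, and Hk1 was the most raised member of upper glycolysis in males. Its level in male IVF embryos was 0.65 to 2.37 (median 1.55). The male clones lay at 5.28, 2.23, 3.54 and 4.21 (Purkinje), 5.16, 5.15, 4.62 and 4.51 (CA1) and 3.35, 5.04, 3.98 and 4.90 (Sertoli). All CA1 and Sertoli values were above the highest control, and Purkinje replicate 2 alone fell within the controls' range. Hk1 rose by 2.36 in male Purkinje (SE 0.45, 5.13-fold, adjusted p = 0.000318), 3.40 in male CA1 (SE 0.45, 10.6-fold, adjusted p = 1.68e-06) and 2.86 in Sertoli clones (SE 0.45, 7.27-fold, adjusted p = 3.9e-05). These 3 calls held under every alternative setting run and without any 1 array. In females the controls were at 3.18, 2.99 and 1.20, and the clones at 2.58, 3.92, 3.41 and 2.89 (Purkinje), 3.74, 4.40, 3.92 and 3.78 (CA1) and 2.85, 3.42 and 2.70 (cumulus). Only the CA1 clones lay wholly above the female controls, and the changes of 0.75, 1.51 and 0.53 were not called (adjusted p = 0.37, 0.0657 and 0.684). The male minus female difference of the change was 1.61 (95% interval 0.16 to 3.06, adjusted p = 0.593) for Purkinje and 1.90 (0.45 to 3.35, adjusted p = 0.201) for CA1 clones, so a difference between the sexes was not called. Hk1 rests on 1 probe of 6; the other 5 lay on the floor on 31 to 33 arrays. Hk2, the other hexokinase of the group, was called in cumulus clones only, at 8.26, 8.52 and 8.01 against 6.49, 7.43 and 7.81 (change 1.02, SE 0.28, adjusted p = 0.0332), a call lost without any 1 of cumulus replicates 1 or 2 or female IVF replicates 1 or 2 (adjusted p = 0.0567 to 0.204). It was also lost with only the earlier array set (0.116) or only these 2 groups fitted (0.248). Slide as a random block (0.051) and normexp background correction (0.367) ended it too.

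Phosphofructokinase is the main control point of glycolysis, and its muscle form Pfkm fell in 3 clone groups. Male IVF embryos had Pfkm levels of 0.28 to 1.80 (median 1.03). Male Purkinje clones lay at -1.48, -0.44, -1.61 and -1.76, Sertoli clones at -0.30, -0.04, -0.72 and -0.41, and male CA1 clones at -0.36, 0.50, 0.09 and 1.09. The Purkinje and Sertoli clones were wholly below the controls and the CA1 clones overlapped them. Pfkm fell by 2.35 in male Purkinje clones (SE 0.48, 5.09-fold lower, adjusted p = 0.000611), which held in all alternatives, and by 1.39 in Sertoli clones (SE 0.48, adjusted p = 0.0319). In female Purkinje clones the levels were 0.30, -1.84, -2.45 and -0.48 against 0.38, 0.75 and 0.96 in female IVF embryos, a fall of 1.81 (SE 0.58, adjusted p = 0.0279). The 2 lowest of these came from dim arrays, and with replicate 1 alone the change was -0.40 (adjusted p = 0.941). Leaving out any 1 of Sertoli replicates 1, 3 or 4 or male IVF replicates 1, 6 or 7 ended the Sertoli call (adjusted p = 0.0507 to 0.0883), and any 1 of female IVF replicates 2 or 3 or female Purkinje replicates 2 or 3 the female one (0.0753 to 0.112). Pfkl, the liver form, fell by 1.33 in male Purkinje clones only (adjusted p = 0.0195; 0.0789 without replicate 3). Without the dim arrays its change was -1.07 (adjusted p = 0.211), and under normexp background correction -0.28. Pfkp, the platelet form, rose by 1.15 in male CA1 clones only (adjusted p = 0.00874), and as a mean over its probes its change was 0.39 (adjusted p = 0.164).

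Fructose 2,6-bisphosphate activates phosphofructokinase and is made and removed by the bifunctional enzymes Pfkfb1, Pfkfb2 and Pfkfb3. X-linked Pfkfb1 lay at 1.02 to 2.87 (median 2.15) in male IVF embryos. Male Purkinje clones were at -3.32, 1.38, -0.61 and -1.01, male CA1 clones at -0.00, -0.39, 0.64 and 0.47, and Sertoli clones at -0.27, -0.00, -0.03 and -0.67. Purkinje replicate 2 alone reached the controls. Pfkfb1 fell by 3.02 (SE 0.62, 8.09-fold lower, adjusted p = 0.000717), 1.95 (adjusted p = 0.0183) and 2.37 (adjusted p = 0.00623) in these groups. The female controls were at 0.28, 0.86 and 0.90, female Purkinje clones at -1.47, -3.09, -0.34 and -0.51, female CA1 clones at -0.54, -3.43, -1.98 and -1.32, and cumulus clones at -0.25, -2.08 and 0.33. Both neuronal groups lay wholly below the controls, and cumulus replicate 3 did not. The fall of 2.50 in female CA1 clones was called (SE 0.76, adjusted p = 0.0287), while the changes of -2.03 in female Purkinje and -1.35 in cumulus clones were not (adjusted p = 0.0588 and 0.363). Without male CA1 replicate 2 the male CA1 call was lost (adjusted p = 0.0626), and without female CA1 replicate 2 or any 1 female IVF array the female one (0.05 to 0.105). Pfkfb2 fell by 1.01 in male CA1 clones (adjusted p = 0.00813; 0.0649 without replicate 4), but as a mean over its probes the change was -0.30 (adjusted p = 0.18). Pfkfb3 was called nowhere.

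The aldolases cleave fructose 1,6-bisphosphate, and Aldoc, the brain form, moved in opposite directions in clones of the 2 neuron types. Male IVF embryos were at -2.42 to -0.24 (median -0.99), male Purkinje clones at -2.51, -2.16, -1.73 and -2.78, male CA1 clones at -0.28, 1.16, 0.17 and 0.39, and Sertoli clones at -0.74, 0.01, -0.33 and -0.14. The Purkinje clones lay wholly below the CA1 clones, and each overlapped the controls. Against male IVF embryos, Aldoc fell by 1.14 in Purkinje clones (SE 0.39, adjusted p = 0.0285) and rose by 1.51 in CA1 clones (SE 0.39, adjusted p = 0.00401). The fall was lost without any 1 of male IVF replicates 2 or 4 or Purkinje replicates 1 or 4 (adjusted p = 0.0501 to 0.108), and the rise held without any 1 array. Among female embryos the controls were at -3.43, -2.25 and -1.39, Purkinje clones at -2.58, -2.00, -3.43 and -3.16, CA1 clones at -1.37, 0.26, -1.60 and -1.41, and cumulus clones at 0.00, -0.42 and -0.25. The cumulus clones were wholly above the controls, with a rise of 2.13 (SE 0.51, 4.39-fold, adjusted p = 0.015) that was lost without cumulus replicate 1 or female IVF replicate 1 (0.0538 and 0.0936). This call was also lost with only the earlier array set fitted (0.069), only these 2 groups fitted (0.142) or normexp background correction (0.0529). The neuronal changes were -0.44 (adjusted p = 0.582) and 1.33 (adjusted p = 0.0624). Aldoc rests on 1 dim probe, and under normexp background correction the male Purkinje change was -0.14 (adjusted p = 0.801). Without the dim arrays it was -1.18 (adjusted p = 0.14). Aldoa, the ubiquitous form, rose by 0.76 in male CA1 (adjusted p = 0.00191, 5 of 7 control values usable) and by 0.64 in female Purkinje clones (adjusted p = 0.0273; lost without any 1 of female IVF replicates 2 or 3 or Purkinje replicate 1, 0.0609 to 0.135). The female change was 0.96 without the dim arrays (adjusted p = 0.124), 0.53 as a mean over probes (0.121), -0.12 under normexp (0.833) and 0.03 with arrays scaled to their median (0.981). Gpi1, phosphoglucose isomerase, and Tpi1, triosephosphate isomerase, were called in no comparison with IVF.

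Pgk1, the X-linked phosphoglycerate kinase that makes the first ATP of glycolysis, was the member that fell furthest in male CA1 and in female Purkinje clones. In male IVF embryos its level was 5.06 to 6.07 (median 5.59). Male Purkinje clones lay at 2.50, 3.72, 2.02 and 2.29, male CA1 clones at 1.31, 1.27, 1.63 and 1.52, and Sertoli clones at 4.16, 2.17, 3.24 and 2.25. No male clone reached the lowest control, and the CA1 clones were the lowest and the closest together. Pgk1 fell by 2.93 (SE 0.50, 7.62-fold lower, adjusted p = 9.7e-05), 4.13 (SE 0.50, 17.5-fold lower, adjusted p = 4.22e-07) and 2.61 (SE 0.50, 6.11-fold lower, adjusted p = 0.000347). Female IVF embryos were at 5.12, 5.10 and 5.63, female Purkinje clones at 2.78, 0.32, 0.76 and 2.74, female CA1 clones at 2.90, 1.75, 2.78 and 3.06, and cumulus clones at 3.88, 1.72 and 4.97. Again every clone lay below every control. The fall was 3.63 in female Purkinje (SE 0.61, 12.4-fold lower, adjusted p = 0.000185) and 2.66 in female CA1 clones (SE 0.61, 6.32-fold lower, adjusted p = 0.0043), and the change of -1.76 in cumulus clones was not called (SE 0.61, adjusted p = 0.109). Leaving out any 1 array ended none of the 5 calls; without its 3 dim arrays the female Purkinje change was -2.50 (adjusted p = 0.131). The second Pgk1 probe gave -2.64, -3.81, -2.41, -3.17, -2.13 and -1.64. Retrocopies of Pgk1, Gapdh, Ldha and Eno1 exist in the mouse genome, and how far they share these probes' signal is not given in the sources used here.

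Among 440 X-linked genes tested (Xist and Tsix left out), 22.3%, 35.9% and 29.8% were lower in the male groups (Purkinje, CA1, Sertoli), while the female ones (Purkinje, CA1, cumulus) had 20%, 18.6% and 12.3%. Of all genes, 10.3%, 13.3%, 10.8%, 6.66%, 4.87% and 3.34% were lower in this order. X-linked genes that were higher made up 8.41%, 5.23%, 5%, 7.95%, 2.73% and 0%. The shares of all genes higher were 18.3%, 17.7%, 15.1%, 13.1%, 8.41% and 1.94%. The median change of the X-linked genes ran from -0.54 (male CA1) to -0.18 (male Purkinje). Counted from the most lowered, Pgk1 stood 13th to 46th of the 440 in the 6 comparisons and Pfkfb1 18th to 75th. The 10 nearest tested X-linked neighbours of Pgk1, 5 on each side, had a median change of -0.68 to -0.11, with 1 to 3 of 10 lower in a comparison. Those of Pfkfb1 had medians of -0.86 to -0.31. X-linked Pdha1 stood 370th to 408th.

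**Figure D2:**
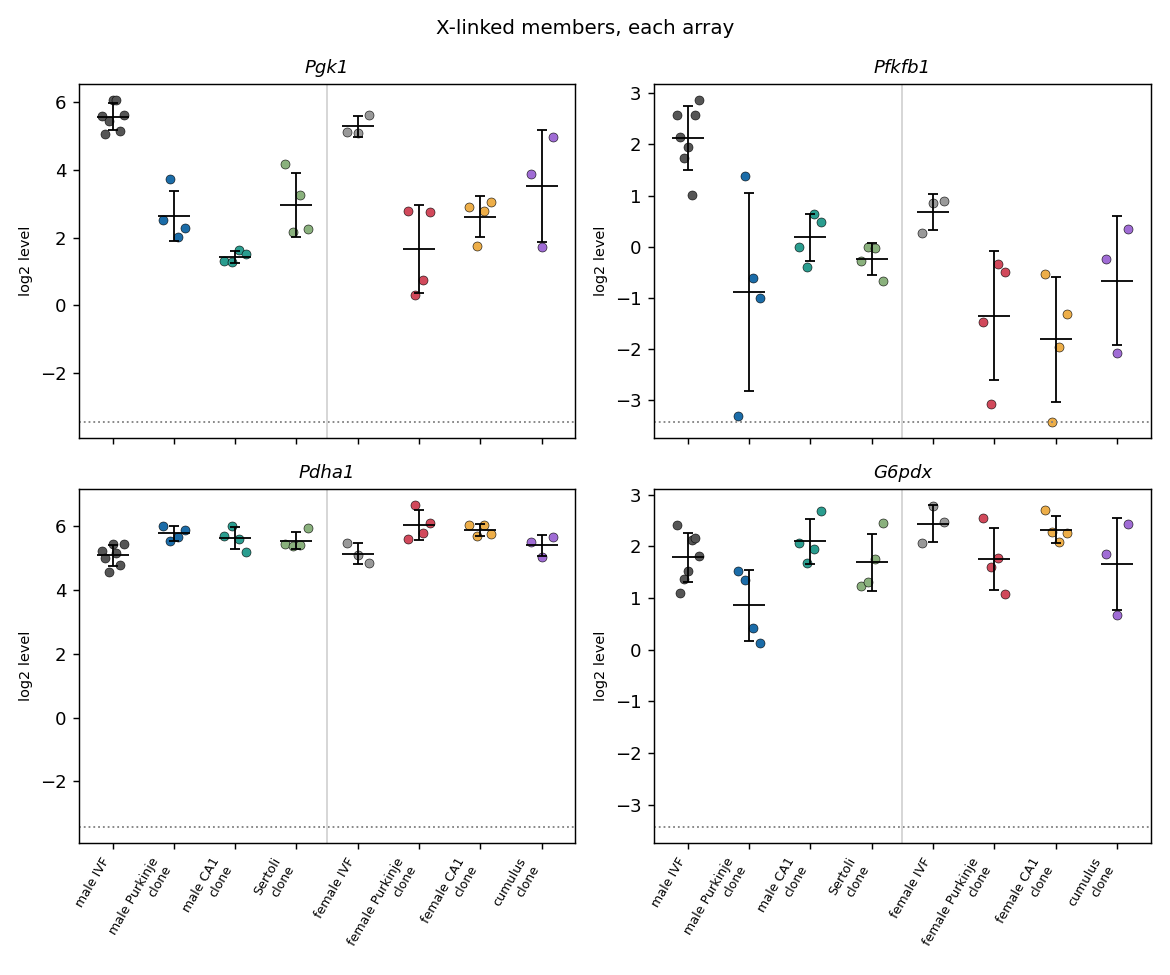
Log2 level (vertical axis, relative to the 75th percentile of the array) of 4 X-linked members on each array by group (horizontal axis, males left of the grey line), with the mean and SD; the dotted line is the floor at -3.43. Every clone lies below every IVF embryo of its sex for Pgk1, whereas Pdha1 levels lie between 4.57 and 6.68 throughout.

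The remaining genes of lower glycolysis changed less evenly. Eno1, the widespread enolase, was read by 1 dim probe at -2.86 to -1.0 (median -1.32) in male IVF embryos. Male Purkinje clones were at -3.43, -2.89, -2.99 and -2.96, all 4 male CA1 clones on the floor, and Sertoli clones at -3.43, -3.43, -3.31 and -3.43, each group wholly below the controls. Eno1 fell by 1.45 in male Purkinje (SE 0.27, adjusted p = 0.000248), at least 3.5-fold in male CA1 (adjusted p = 9.25e-06) and by 1.78 in Sertoli clones (adjusted p = 2.49e-05), where 3 of 4 values lay on the floor, so the size there depends on the floor. In females the controls were at -1.65, -1.81 and -2.81, Purkinje clones at -3.21, -2.93, -2.54 and -3.21, CA1 clones at -3.43, -3.43, -3.43 and -3.17, and cumulus clones at -2.32, -1.91 and -1.21. The fall of 1.28 in CA1 clones, with 3 of 4 on the floor, was called (SE 0.33, adjusted p = 0.0101), though not without female IVF replicate 1 or 2 (0.0666 and 0.0541), and the changes of -0.88 and 0.28 in Purkinje and cumulus clones were not (adjusted p = 0.0558 and 0.744). Under normexp the male Purkinje change of Eno1 was -0.06 (adjusted p = 0.921) and the female CA1 change -0.63 (0.492). Each group in which Eno1 was called belonged to the present array set, while the cumulus clones shared the earlier set with the IVF embryos. How far the array set moved the level of Eno1 was not tested.

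Eno3, the muscle enolase, lay at 0.73 to 2.07 (median 1.71) in male IVF embryos, and at 2.70, 4.37, 2.79 and 3.36 in male CA1 clones, wholly above. It rose there by 1.82 (SE 0.36, 3.53-fold, adjusted p = 0.00037), without exception in the alternatives, and was called in no other clone group against IVF. Pgam1, phosphoglycerate mutase, rose by 0.55 in Sertoli clones only (adjusted p = 0.0198). That call was lost without replicate 1 (0.0516) or replicate 4 (0.0965), and with the replicate number as a block (0.0559). Normexp (0.0997), quantile normalization (0.0849) and scaling to the array median (0.205) also ended it. Pkm, the pyruvate kinase, fell by 1.03 in male Purkinje clones only (adjusted p = 0.0142; 0.0703 without replicate 3 and 0.0535 without replicate 4). Its change without the dim arrays was -0.67 (adjusted p = 0.337). Gapdh, read by probes named for Gapdh-like loci in the annotation, was called nowhere. Its change in male Purkinje clones was -0.72 (adjusted p = 0.0548, 6 of 7 control values usable).

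**Figure D3:**
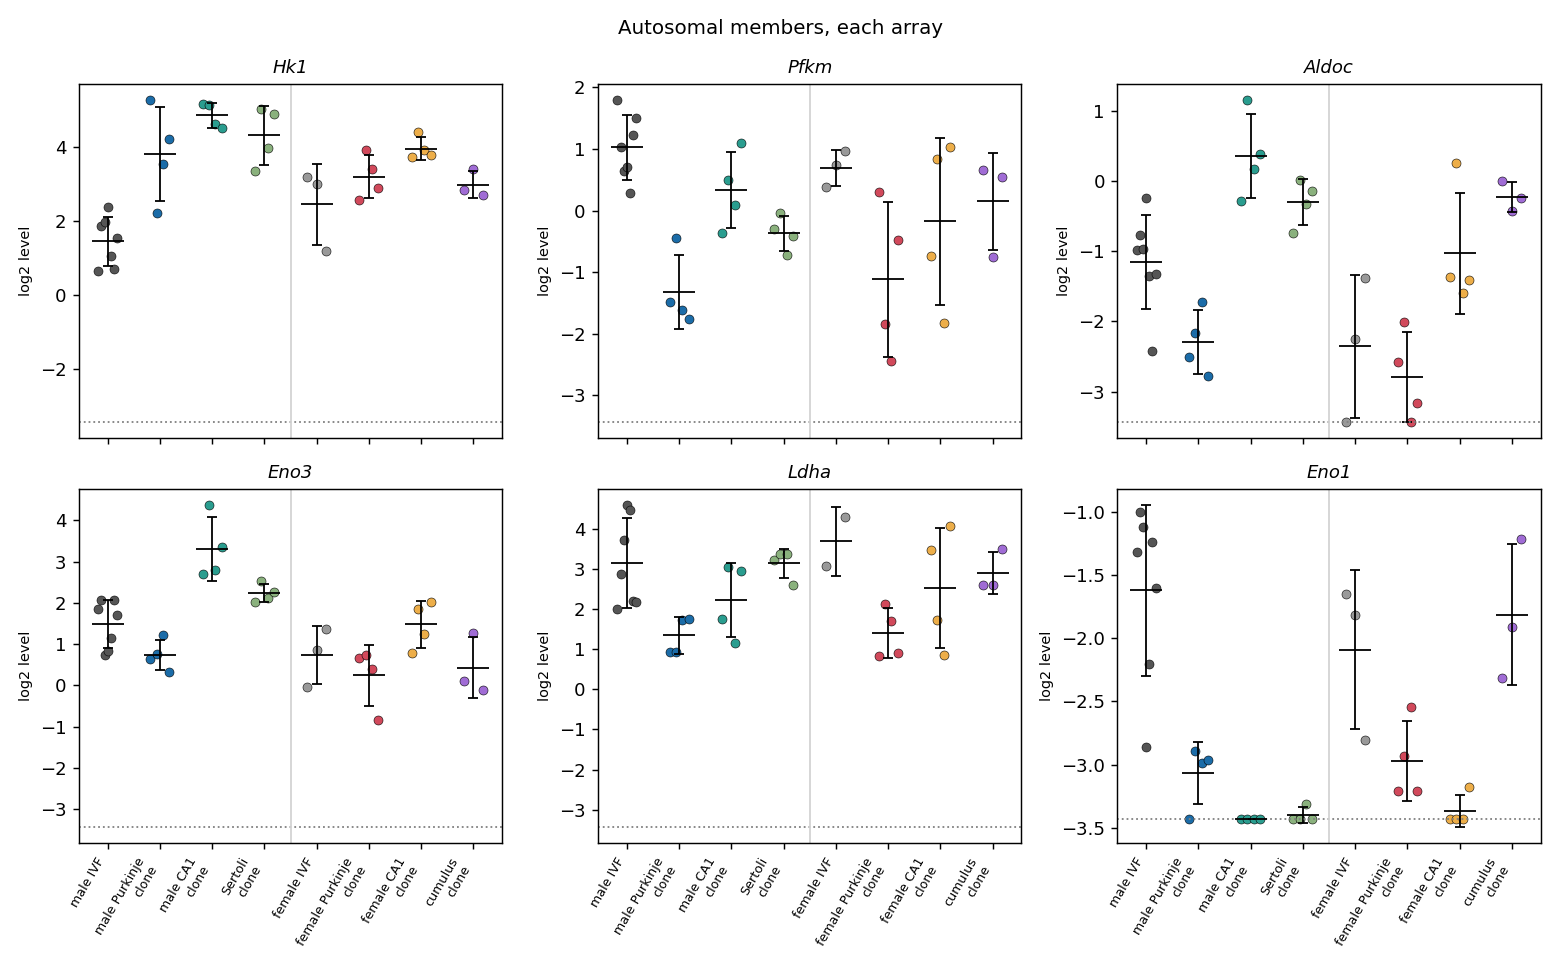
Log2 level (vertical axis, relative to the 75th percentile of the array) of 6 autosomal members on each array by group (horizontal axis, males left of the grey line), with the mean and SD; the dotted line is the floor at -3.43. Hk1 is at 4.51 or more in all male CA1 clones against at most 2.37 in male IVF embryos, and Eno1 sits on or near the floor in most neuronal and Sertoli clones.

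Lactate dehydrogenase converts pyruvate to lactate, and its A subunit fell in both groups of Purkinje clones. Ldha lay at 2.01 to 4.59 (median 2.86) in male IVF embryos, at 0.94, 0.94, 1.72 and 1.76 in male Purkinje clones, at 1.74, 3.03, 1.16 and 2.95 in male CA1 clones and at 3.22, 3.37, 3.37 and 2.61 in Sertoli clones. The Purkinje clones were wholly below the controls, the other groups not. In females the 2 usable controls were at 3.08 and 4.30, and the clones at 0.84, 2.12, 1.70 and 0.91 (Purkinje), 3.47, 1.73, 0.86 and 4.07 (CA1) and 2.59, 2.60 and 3.49 (cumulus). Ldha fell by 1.81 in male (SE 0.55, 3.5-fold lower, adjusted p = 0.0147) and by 2.30 in female Purkinje clones (SE 0.76, 4.91-fold lower, adjusted p = 0.033). Without the dim arrays the changes were -2.21 (adjusted p = 0.0648) and -2.85 (0.225), and without any 1 of female IVF replicate 3 or female Purkinje replicates 1 or 4 the female call was lost (0.0613 to 0.272). A second Ldha probe gave -2.89 and -3.56 in these groups. Slc16a1, which encodes the lactate transporter MCT1, rose by 0.74 in male Purkinje clones (adjusted p = 0.0351), a call lost without any 1 of male IVF replicates 1, 2, 6 or 7 or Purkinje replicates 1, 3 or 4 (0.0541 to 0.107). Its change without the dim arrays was 0.54 (adjusted p = 0.368). Ldhb was called nowhere, and Slc16a3, the exporter MCT4, lay on or near the floor (-3.43 to -2.04).

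Pyruvate dehydrogenase links glycolysis to the citric acid cycle, and the probe that stands for Pdha1, its X-linked E1 alpha subunit, rose in 4 clone groups. Male IVF embryos were at 4.57 to 5.46 (median 5.15), male Purkinje clones at 6.03, 5.54, 5.66 and 5.90, male CA1 clones at 5.71, 6.02, 5.61 and 5.21, and Sertoli clones at 5.45, 5.39, 5.42 and 5.96. Only the Purkinje clones were wholly above the controls. Pdha1 rose by 0.69 (SE 0.20, 1.61-fold, adjusted p = 0.0129) and 0.54 (SE 0.20, adjusted p = 0.0451) in Purkinje and CA1 clones, and its change of 0.46 in Sertoli clones was not called (adjusted p = 0.0989). Female controls lay at 5.50, 5.10 and 4.86, Purkinje clones at 5.6, 6.68, 5.81 and 6.12, CA1 clones at 6.04, 5.70, 6.04 and 5.75, and cumulus clones at 5.52, 5.03 and 5.67. Both neuronal groups were wholly above the controls, with rises of 0.90 (SE 0.25, adjusted p = 0.0117) and 0.73 (SE 0.25, adjusted p = 0.0497), against 0.26 in cumulus clones (adjusted p = 0.661). A second Pdha1 probe did not show this: its changes were 0.20, -0.97, -0.25, -0.01, -0.38 and 0.28, so the direction for the gene depends on the probe. As a mean over both probes the change was 0.45 in female Purkinje (adjusted p = 0.133), 0.18 in female CA1 (0.673) and -0.21 in male CA1 clones (0.365). All 4 Pdha1 calls were lost under normexp (adjusted p = 0.106 to 0.534). They were also lost under quantile normalization (0.174 to 0.324) and scaling to the array median (0.166 to 0.541). Without the dim arrays the Purkinje changes were 0.69 in males (adjusted p = 0.0759) and 0.45 in females (0.622). The calls also depended on single arrays: in male CA1 clones on replicates 1, 2 and 3 and male IVF replicates 2, 3, 5 and 6 (adjusted p = 0.0527 to 0.179 without 1 of them), in female CA1 clones on all 4 clones and female IVF replicates 2 and 3 (0.0566 to 0.205), and in female Purkinje clones on replicate 2 and female IVF replicate 3 (0.0603 and 0.0732).

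Pdhb, the E1 beta subunit, fell by 0.77 in male CA1 clones only (SE 0.14, 1.70-fold lower, adjusted p = 0.000175). Its levels there were 5.06, 5.41, 4.73 and 4.43 against 5.34 to 5.99 (median 5.64) in male IVF embryos, and only replicate 2 reached the controls. Dlat, the E2 subunit, rose by 0.64 in Sertoli (adjusted p = 0.0137; 0.065 without replicate 4) and by 0.82 in female Purkinje clones (adjusted p = 0.0129; 0.0501 without replicate 2 and 0.0716 without female IVF replicate 3). As a mean over probes these changes were 0.49 (adjusted p = 0.0771) and 0.63 (0.0772), and without the dim arrays the female one was 0.78 (0.295).

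The 4 pyruvate dehydrogenase kinases switch the complex off by phosphorylating it, and none was called against IVF embryos. Pdk2 varied most. Its levels in male IVF embryos ran from -3.43 to 2.11 with 4 of 7 on the floor, and in female IVF embryos they were -0.17, -3.43 and 2.54. Female Purkinje clones were at -3.43, -3.08, -3.37 and -3.36, female CA1 clones at -3.43, -3.43, -3.06 and -3.43, and cumulus clones at 3.1, 2.67 and 2.04. The cumulus clones lay far above both neuronal groups, and the female IVF embryos ran from the floor to 2.54, below 2 of the 3 cumulus clones. Pdk2 changed by -2.96, -2.98 and 2.96 against female IVF embryos (SD 2.99 among the 3 controls), which was not called (adjusted p = 0.0761, 0.0932 and 0.171).

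Between clone groups, Pdk2 was 5.92 lower in female Purkinje (SE 1.18, adjusted p = 0.000957) and 5.94 lower in female CA1 than in cumulus clones (SE 1.18, adjusted p = 0.00108). The CA1 clones lay on the floor on 3 of 4 arrays and the Purkinje clones on 1 of 4, so the sizes depend on the floor. The 2 comparisons share the cumulus arrays, which belong to the earlier set. With female Purkinje replicate 1 alone the first was -6.03 (adjusted p = 0.0815). In the first of them, 2 members were higher and 4 lower (16.2%, against 18.8% of all genes, 14.4% higher and 4.35% lower; 0 and 12 with arrays scaled to their median), and in the second 5 higher and 2 lower (18.9%, against 19.4% of all genes, 13.9% higher and 5.44% lower; 1 and 3 with that scaling). Of all genes, that scaling gave 365 higher and 2407 lower in the first comparison, and 1145 and 946 in the second. In each comparison, the ranges of 11 members did not overlap, against 28% and 27.6% of all genes. The other members lower in female Purkinje than in cumulus clones were Aldoc, by 2.57 (SE 0.48, 5.93-fold, adjusted p = 0.000497), Pgk1, by 1.87 (adjusted p = 0.0307), and Eno1, by 1.16 (adjusted p = 0.0136), and Aldoa was 0.86 higher (adjusted p = 0.00437). Of these only Aldoa was called with Purkinje replicate 1 alone (adjusted p = 0.0419); Pgk1 was also lost without any 1 of cumulus replicates 1 or 3 or Purkinje replicates 2 or 3 (0.0936 to 0.253), and Eno1 without cumulus replicate 3 (0.113). In female CA1 clones Eno1 was 1.55 lower than in cumulus clones (adjusted p = 0.00179), and Gpi1 was 1.07 higher (adjusted p = 0.00899), Slc2a1 1.04, Pgd 0.86, Aldoa 0.67 and Pgam1 0.62. Single arrays ended the last 4 calls: cumulus replicate 1 for Slc2a1 (0.0985), cumulus replicate 2 for Pgd (0.0629), cumulus replicates 2 or 3 or CA1 replicate 1 for Aldoa (0.0589 to 0.0742), and any cumulus array or CA1 replicates 1, 2 or 4 for Pgam1 (0.0507 to 0.212). Pdk4 was not well above background on any cumulus array and at -3.43, -1.66, -0.11 and 0.11 in female Purkinje clones, at least 4.46-fold higher (adjusted p = 0.0359); leaving out any 1 cumulus array or Purkinje replicate 2, 3 or 4 ended this call (0.0538 to 0.128), and with Purkinje replicate 1 alone both groups were on the floor. Pdk1 and X-linked Pdk3 were called nowhere, and Pdk3 lay on the floor on 2 or 3 arrays of each clone group.

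**Figure D4:**
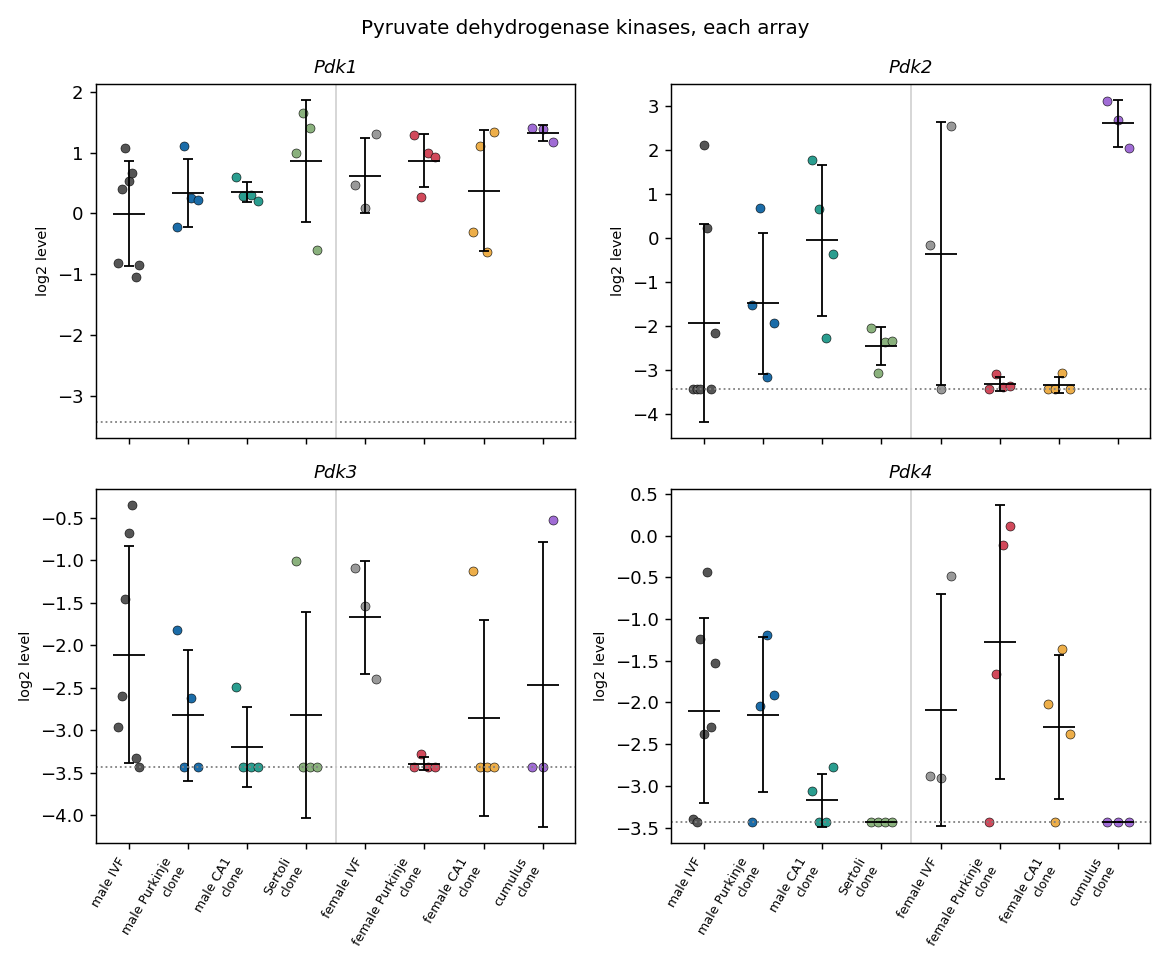
Log2 level (vertical axis, relative to the 75th percentile of the array) of the 4 pyruvate dehydrogenase kinases on each array by group (horizontal axis, males left of the grey line), with the mean and SD; the dotted line is the floor at -3.43. Pdk2 is at 2.04 to 3.1 in cumulus clones and at -3.08 or less in all female Purkinje clones, while IVF embryos spread from the floor to 2.54.

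The pentose phosphate pathway diverts glucose 6-phosphate to NADPH and ribose. G6pdx, its X-linked first enzyme, fell by 0.93 in male Purkinje clones only (SE 0.33, adjusted p = 0.036), at 1.52, 1.36, 0.43 and 0.12 against 1.1 to 2.42 (median 1.81). The 2 lowest values came from the dim arrays, without which the change was -0.35 (adjusted p = 0.638), and the call was also lost without any 1 of male IVF replicates 1, 5, 6 or 7 (the range over all 6 such arrays was 0.0507 to 0.18). Pgd, the third enzyme of the oxidative branch, rose by 0.66 in male CA1 (adjusted p = 0.0107) and by 0.72 in Sertoli clones (adjusted p = 0.00765), with 6 of 7 control values usable and both groups wholly above them. As a mean over probes the changes were 0.03 (adjusted p = 0.981) and 0.46 (0.199), and both calls were also lost under normexp (0.24 and 0.254), quantile normalization (0.07 and 0.11) and scaling to the array median (0.147 and 0.0737). Tkt, transketolase, rose by 0.53 in male CA1 clones (adjusted p = 0.0148; 0.052 without replicate 4), a call lost under the same 4 settings (0.139 to 0.813). Taldo1, transaldolase, and the phosphoglucomutases Pgm1 and Pgm2, which connect glycolysis with glycogen, were called nowhere; outlier spots left 1 of 7 male and 1 of 3 female IVF values for Taldo1.

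Purkinje and CA1 clones, the 2 neuron types of the study, were compared directly within each sex, both in the present array set. The Purkinje arrays of both sexes were scanned on the same day and the CA1 arrays on another. Donor cell, slide and scan day therefore cannot be told apart in either sex. In males 4 members were higher and 8 lower in Purkinje clones (32.4% called, against 18.6% of all genes, 11% higher and 7.6% lower; 1 and 9 with arrays scaled to their median), and in females 1 was higher and 3 lower (10.8%, against 11% of all genes, 6.17% higher and 4.82% lower; 0 and 8 with that scaling). Of all genes, that scaling gave 789 higher and 1165 lower in males, and 261 and 2886 in females. The ranges of 15 male and 5 female members did not overlap, against 21% and 12.6% of all genes. Without the dim arrays 5 members were called in males (3.79% of all genes) and 0 in females (0.525% of all genes). Aldoc and Eno3 were lower in Purkinje clones of both sexes. For Aldoc the difference was -2.65 in males (SE 0.44, 6.29-fold, adjusted p = 0.000169) and -1.76 in females (SE 0.44, 3.39-fold, adjusted p = 0.0105), and for Eno3 it was -2.57 (SE 0.41, 5.94-fold, adjusted p = 0.000108) and -1.24 (SE 0.41, 2.36-fold, adjusted p = 0.0498). Eno3 was at 0.64, 0.77, 1.22 and 0.32 in male and 0.67, 0.74, 0.41 and -0.84 in female Purkinje clones, and at 2.70, 4.37, 2.79 and 3.36 and 0.80, 1.86, 1.24 and 2.02 in CA1 clones. In each sex the groups did not overlap for either gene. Without the dim arrays the male differences were -2.69 and -2.60 and remained called (adjusted p = 0.00572 and 0.00311), while the female ones were -1.55 and -0.81 and were not (0.531 and 0.865). Leaving out female CA1 replicate 2 also ended the female Aldoc call (0.0558), and any 1 of female CA1 replicates 2, 3 or 4 or Purkinje replicates 2, 3 or 4 the female Eno3 call (0.0516 to 0.234). Over all 22 alternative settings, arrays left out included, the male calls of both genes held in 22. The female Aldoc call held in 18 and the female Eno3 call in only 5. Female Eno3 was lost with the authors' values (0.0567), under normexp (0.0777) and under quantile normalization (0.074), among others.

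In males Pdhb was 0.97 higher in Purkinje clones (adjusted p = 0.000184) and Tkt 0.70 lower (adjusted p = 0.00927), and both remained called without the dim arrays (0.00770 and 0.0228). As a mean over probes the Tkt difference was -0.28 (adjusted p = 0.666), and under normexp that of Pdhb was 0.34 (0.49). The other 8 male calls, Hk2, Slc2a3 and Slc16a1 higher and Gpi1, Pfkm, Aldoa, G6pdx and Pgd lower, were lost without them (adjusted p = 0.13 to 0.52). In females Pfkp was 1.49 higher (adjusted p = 0.0105; 0.0523 without Purkinje replicate 4) and Slc2a1 0.79 lower in Purkinje clones (adjusted p = 0.0446; 0.0748 to 0.187 without any 1 of CA1 replicates 1, 3 or 4 or Purkinje replicates 2 or 4), and neither was called without the dim arrays (0.908 and 0.871). As a mean over probes the Pfkp difference was 0.57 (adjusted p = 0.12). Of the 9 tested neuron markers, all but Wfs1, Nefl and Pcp2 had group means of -1.55 or lower in clones. The mean over the list was -2.23 to -1.25 per array in Purkinje and -2.12 to -1.62 in CA1 clones. Against IVF embryos of the same sex, 1 of the 9 was higher and 0 lower in male Purkinje clones, and 1 and 2 in male CA1 clones. Female Purkinje and female CA1 clones each had 1 higher and 1 lower, Sertoli clones 1 and 2, and cumulus clones 0 and 1. The part of these markers in the differences between Purkinje and CA1 clones was not tested.

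**Figure D5:**
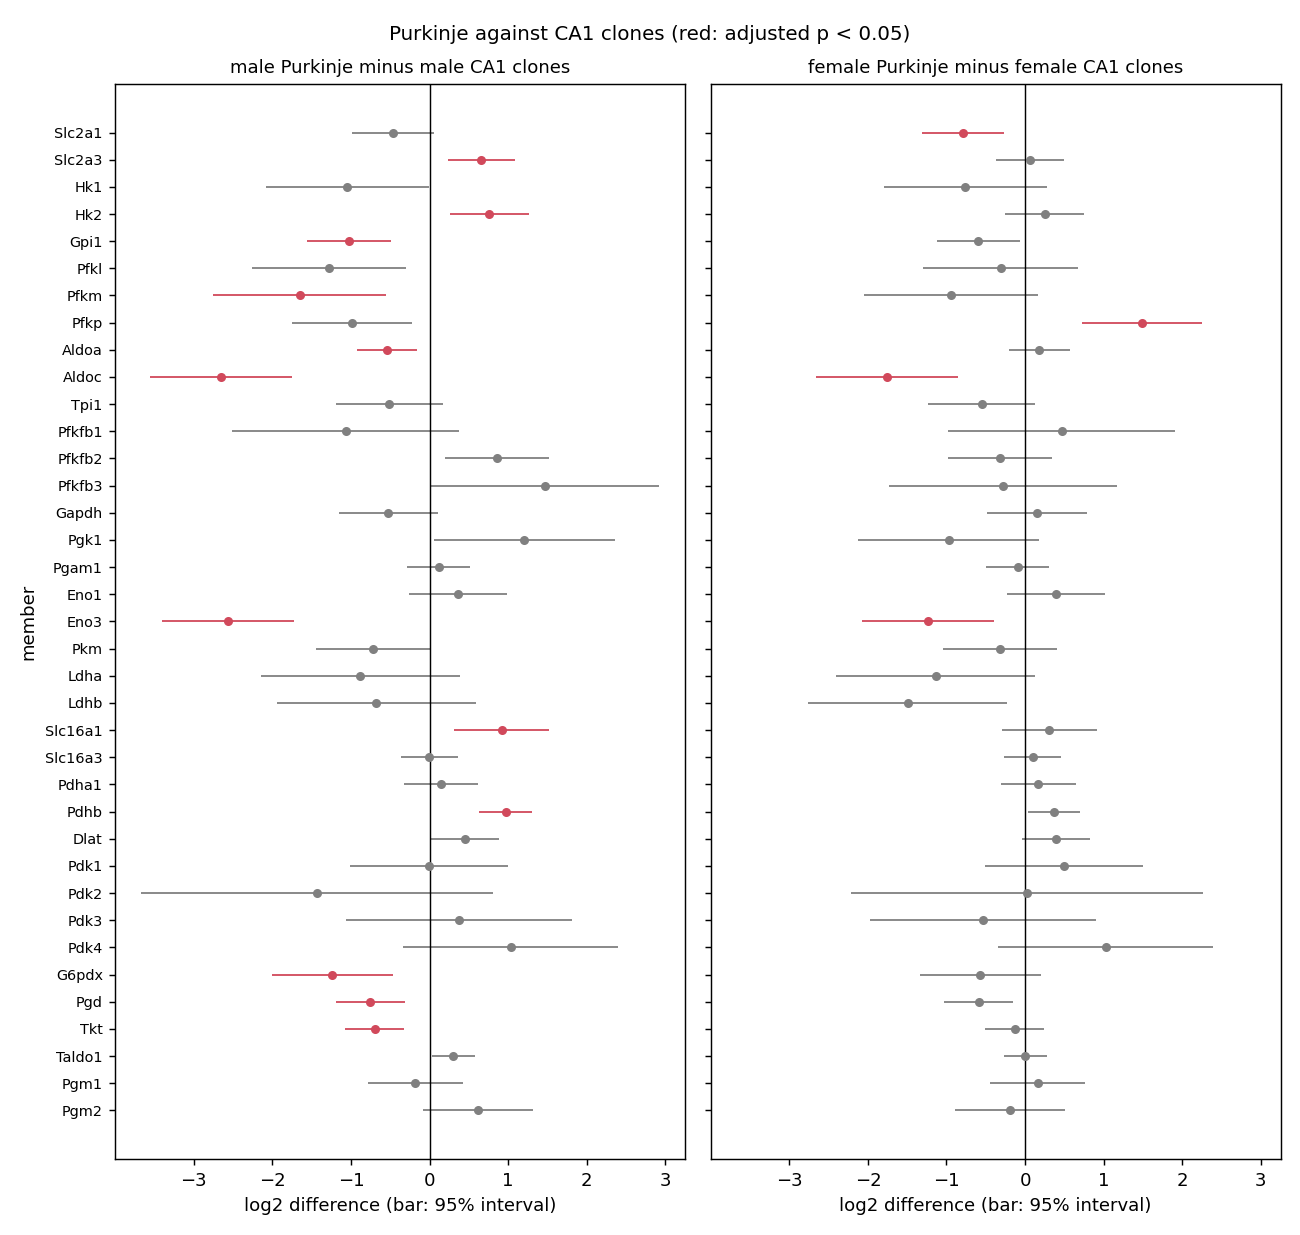
Log2 difference between Purkinje and CA1 clones for each of the 37 members (vertical axis, by step of the pathway), in males (left) and females (right); points are differences, bars 95% intervals, and red marks an adjusted p under 0.05. Aldoc and Eno3 lie left of 0 in both panels, at -2.65 and -2.57 in males and -1.76 and -1.24 in females.

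Against Sertoli clones, male Purkinje clones had 3 members lower and 0 higher (8.11%, against 4.77% of all genes, 1.42% lower and 3.35% higher): Aldoc by 2.00 (SE 0.44, adjusted p = 0.00656), Eno3 by 1.5 (adjusted p = 0.0301) and Pgd by 0.81 (adjusted p = 0.0243). None was called without the dim arrays (adjusted p = 0.0752, 0.152 and 0.405). Eno3 was also lost without any 1 Sertoli array or Purkinje replicate 1 or 4 (0.0518 to 0.115), and Pgd without Sertoli replicate 4 or Purkinje replicate 3 or 4 (0.0943 to 0.127). Male CA1 clones had 3 members higher (Pfkp, Aldoa and Tkt) and 3 lower (Pfkfb2, Pdhb and Dlat) than Sertoli clones (16.2%, against 12% of all genes, 5.55% higher and 6.41% lower). The largest of these were Pfkp, 1.57 higher (adjusted p = 0.00726), and Pfkfb2, 1.06 lower (adjusted p = 0.0316), while Pdhb was 0.85 lower (adjusted p = 0.0013). As means over probes, the differences of Pfkfb2, Tkt and Dlat were -0.24 (adjusted p = 0.481), 0.06 (0.992) and -0.49 (0.182). Pfkfb2 was lost without any 1 of Sertoli replicates 2 or 3 or CA1 replicates 3 or 4 (0.0626 to 0.159), Dlat without any 1 of Sertoli replicates 1, 3 or 4 or CA1 replicates 1 or 4 (0.0535 to 0.0782), and Tkt without any 1 of Sertoli replicates 1, 2 or 3 or CA1 replicates 2, 3 or 4 (0.0568 to 0.115). In each of these comparisons the ranges of 7 members did not overlap, against 10.2% and 21.1% of all genes. Male and female IVF embryos differed in 0 of 37 members by limma (0.436% of all genes), with the ranges of 4 not overlapping (2.55% of all genes) and 7 members at an unadjusted p under 0.05 (18.9%, against 12.5% of all genes). The change in clones differed between males and females for 0 members in Purkinje clones (0.0569% of all genes), with 4 at an unadjusted p under 0.05 (10.8%, against 7.66% of all genes), and for 0 in CA1 clones (1.08% of all genes), with 7 at an unadjusted p under 0.05 (18.9%, against 13.7%).

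Genes around the pathway were read from 6 further lists. Over all genes, 18.3% were higher and 10.3% lower in male Purkinje, 17.7% and 13.3% in male CA1, 15.1% and 10.8% in Sertoli, 13.1% and 6.66% in female Purkinje, 8.41% and 4.87% in female CA1, and 1.94% and 3.34% in cumulus clones, against which these counts are read. Of 21 regulators of glycolytic genes, 4 were higher and 7 lower in male Purkinje, 4 and 9 in male CA1, 5 and 4 in Sertoli, 2 and 4 in female Purkinje, 3 and 3 in female CA1, and 1 and 0 in cumulus clones. Mlxipl, which encodes the glucose-responsive factor ChREBP, rose in all 6 groups, by 2.17 to 3.41 (adjusted p = 2.95e-05 to 0.0379). Hif1an, an asparaginyl hydroxylase that restrains hypoxia-inducible factors, was lower in 5 groups, with changes of -1.68 to -0.79 over all 6. Myc, an activator of glycolytic genes, was lower in 4 (-3.09 to -1.25 over all 6), and Lin28a, an RNA-binding protein of pluripotent cells, in 4 (-1.88 to -0.37).

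Of 15 hypoxia response genes, 5, 3, 4, 5, 1 and 1 were higher and 1, 3, 2, 2, 0 and 1 lower in the same order of groups. Bnip3, P4ha2 and Adm were each higher in 4 groups. Of 18 citric acid cycle genes tested, 4, 2, 3, 3, 0 and 0 were higher and 4, 7, 3, 0, 1 and 1 lower; Sucla2, a subunit of succinyl-CoA ligase, was higher in 4 groups (0.60 to 1.47 over all 6). Among 13 further genes of pyruvate use and the pentose phosphate pathway, Pdhx, which anchors the E3 subunit in the pyruvate dehydrogenase complex, was higher in 4 groups (0.02 to 1.04). Of 16 other glycolysis genes tested, the largest change was that of Pgam2, the muscle phosphoglycerate mutase, which fell by 3.17 in cumulus clones (adjusted p = 0.00449) and was lower in 3 groups.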

How the data were processed

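Single-colour Agilent arrays gave the deposited probe intensity, which Feature Extraction (9.5.3.1 and 10.5.1.1, per the file headers) had background-subtracted. The authors' deposited value table holds log2 values, floored, scaled to the 75th percentile and centred per probe within each sex, as its match to the scanner values showed (median absolute difference 0.0123 in males and 0.00514 in females); it served as an alternative. Control spots and outlier spots were left out, and each intensity was divided by its array's 75th percentile, floored and taken to log2. Of 41174 probes, 22837 passed (well above background on more than 50% of the arrays of at least 1 group, with 3 or more arrays over the floor and 1 or more values in each group), and the brightest stood for each of 15815 genes. One limma 3.58.1 model (R 4.3.3) over 8 group means and 33 arrays gave changes, with Benjamini-Hochberg adjustment. In data simulated for male Purkinje clones against IVF, without a floor, 54% of genes changed by 1 and 95% of those changed by 2 (log2) were recovered. The changed genes all had mean levels above the 75th percentile of the array, so these shares do not cover dim members. Members called in 3 or more of the 6 comparisons with IVF, or with the largest change of a comparison, are given with their values in each group, the others by counts and ranges with the change where called. Genes of the further lists are named where called in 4 or more of the 6, or where theirs was the largest change of a comparison. The members and the further lists were chosen with earlier results of these data known. Replicate numbers did not pair arrays (mean correlation of deviations 0.0012 for the same number). Gapdh probes are named for Gapdh-like loci in the annotation, and Pgm1 and Pgm2 were named by accession. The annotation names the probe used for Pgm1 as Pgm2, and the probe used for Pgm2 as Pgm1.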

Additional observations from a re-analysis of the deposited data

Results flagged for a closer look

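Of 187 sets of 4 or more values of 1 member in 1 group, 9 held a value far from the others, in 8 members; chance gives about 1 in 20. Sertoli clone replicate 4 stood apart for 6 of them. It was high for Pdha1 (level 5.96, the others 5.39 to 5.45), Pdhb (5.91, the others 5.70 to 5.73) and Tkt (4.76, the others 4.16 to 4.2). It was low for Slc2a3 (5.98, the others 6.58 to 6.68), Pgm1 (3.34, the others 4.91 to 5.19) and Pgm2 (-0.43, the others 1.62 to 1.75). Slc16a1 was low in Sertoli clone replicate 1 (3.66, the others 3.92 to 3.94) and in female Purkinje clone replicate 2 (3.80, the others 4.19 to 4.26). Aldoc was high in female CA1 clone replicate 2 (0.26, the others -1.60 to -1.37).

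Aldoc also changed in opposite directions against IVF embryos in male Purkinje (-1.14) and male CA1 clones (1.51), and the direct difference between these clones was -2.65.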

How the results depend on the processing

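Of 84 calls of a member in a comparison, 17 held under all settings run and 80 kept their sign; the exceptions were Pdha1 in male CA1 clones (-0.21 as a mean over probes), Aldoa in female Purkinje clones (-0.12 under normexp), and, against cumulus clones, female Purkinje Eno1 (0.18 under normexp) and Pdk4 (0 without the dim arrays). By setting, normexp background correction ended 45 of the 84 calls and fitting only the groups compared 34. The mean over probes ended 25, scaling to the array median 25 and quantile normalization 24. The cause of the changes below was not tested.

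Fitting only the groups compared gave 7 members called in male Purkinje, 3 in female Purkinje, 1 in female CA1 and 0 in cumulus clones against IVF, 3 for male CA1 against Sertoli, 1 for female Purkinje against CA1 and 3 for female Purkinje against cumulus clones. That fit called 19.5% of all genes in male and 11.5% in female Purkinje clones against IVF, compared with 28.6% and 19.7% in the main fit. Under normexp background correction there were 8 in male CA1, 2 in female CA1 and 0 in cumulus clones against IVF, 6 for male Purkinje and 0 for male CA1 against Sertoli, 1 for female Purkinje against CA1 and 2 for female CA1 against cumulus clones. In this order, all genes higher and lower numbered 1836 and 1249, 342 and 271, 61 and 135, 884 and 447, 251 and 104, 154 and 352, and 554 and 233. Scaling to the array median gave 5 in Sertoli, 10 in female Purkinje and 3 in female CA1 clones, 8 for female Purkinje against CA1, and 12 and 4 for female Purkinje and CA1 against cumulus clones. All genes higher and lower then numbered 1383 and 1914, 462 and 2788, 800 and 769, 261 and 2886, 365 and 2407, and 1145 and 946 in this order. The members' median then was -0.75 in female Purkinje clones, -0.63 against CA1 and -0.89 against cumulus clones, and that of all genes -0.33, -0.38 and -0.33. Quantile normalization gave 5 in Sertoli clones and 4 for female CA1 against cumulus clones, where 1778 and 1417 of all genes were higher and 2050 and 1081 lower. The members' median was then -0.46 in male Purkinje clones and that of all genes -0.01. Slide as a random block gave 3 in female CA1 and 1 in cumulus clones and 2 for female Purkinje against CA1. That comparison also had 2 with the authors' values, a floor 4 times lower, the mean over probes and the same array set; the mean over probes gave 3 for male CA1 against Sertoli clones, and the same array set 0 in cumulus clones. Without the dim Purkinje arrays there were 5 in male Purkinje and 0 in female Purkinje clones against IVF, 5 and 0 against CA1, 0 against Sertoli and 1 against cumulus clones.

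The replicate number as a block gave 5 members in Sertoli clones (19.5% of all genes, against 25.9% in the main fit) and changed no other count by over 1.5 times. Of 33 arrays, 9 correlated best with their own number.

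Leaving out 1 array gave 3 to 7 members in female Purkinje clones (lowest without female IVF replicate 3 or Purkinje replicate 2), 2 to 4 in female CA1 clones (2 without female IVF replicate 1 or 2, 3 without CA1 replicate 1, 2 or 4), 0 to 3 in cumulus clones (0 without cumulus or female IVF replicate 1, 1 without replicate 2 of either), 5 to 12 for male Purkinje against CA1 (5, 6 and 7 without Purkinje replicate 3, Purkinje replicate 4 and CA1 replicate 4), 1 to 3 for male Purkinje against Sertoli (1 without replicate 4 of either), 3 to 6 for male CA1 against Sertoli (3 without Sertoli replicate 3 or CA1 replicate 4), 1 to 6 for female Purkinje against CA1 (1 without Purkinje replicate 4, 2 without Purkinje replicate 2 or CA1 replicate 2, 3 or 4), 3 to 8 for female Purkinje against cumulus clones (3 without cumulus replicate 3), and 0 to 1 for the sex difference in CA1 clones (1 without female IVF replicate 2 or male IVF replicate 4). Depth limits dim probes: 19.9% of values lay on the floor.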
